A study of Mus musculus with 20 samples.

Results

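The genes followed here end or dampen the olfactory response. They are Pde1c and Pde4a, which hydrolyse cyclic AMP, the calcium exchanger Slc24a4, and the genes listed with them for desensitisation, Arrb2, Camk2a and Carns1. They were chosen by gene name, as the probe sets annotated to these 6 genes, and not by a rule on their values. Earlier results of these data were known at the time. Of the 6 genes, 5 had a probe set, each with 1, among the 22206 gene probe sets of the array, and Arrb2 was not analysed here. Every result below is therefore about 5 genes, and the level of each was read by a single probe set.

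The cells came from the olfactory mucosa of S100a5-tauGFP mice, in which green fluorescent protein (GFP) reports S100a5, a calcium-binding protein of olfactory sensory neurons whose expression follows neuronal activity. All 4 groups came from such mice of both sexes, aged 7 to 12 weeks, and 30 animals were pooled by 3 into 10 pools, each sorted by fluorescence into GFP+ and GFP- cells. The mice spent 40 h alone in a chamber with an air flow of 3.1 L/min, and after 26 h received 10 s pulses every 20 min of an artificial cigarette smoke odor (odor) or of filtered air (vehicle). The groups were odor GFP+, odor GFP-, vehicle GFP+ and vehicle GFP-, with 5 arrays each. The text describing the series gives bourgeonal as the odorant, and the sample labels were followed. The reporter marks cells by a transcript and not by a receptor, a pool mixes 3 animals, and GFP- cells are whatever else of the mucosa passed the sort, non-neuronal cells included.

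In an olfactory sensory neuron, an odorant receptor activates the G protein subunit encoded by Gnal and the adenylyl cyclase Adcy3, and the cyclic AMP they make opens a cation channel in the cilia. Calcium enters through it and opens the chloride channel Ano2. The response ends when phosphodiesterases break down cyclic AMP and exchangers remove calcium, and it adapts as calcium with calmodulin acts on the channel, on Pde1c and on kinases. Pde1c, which calcium and calmodulin activate, is found in the cilia, while Pde4a is found in the dendrite, cell body and axon. Slc24a4 encodes the potassium-dependent sodium-calcium exchanger that clears calcium from the cilia. Arrb2 is a beta-arrestin, which binds phosphorylated receptors. Camk2a is a subunit of calcium/calmodulin-dependent protein kinase II, a kinase known to phosphorylate Adcy3. Carns1 makes carnosine, a dipeptide abundant in olfactory sensory neurons, and is not itself an arrestin, kinase or phosphodiesterase.

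Stretches upstream of 3 of the genes are shown, the only ones with a listed start among the 5 looked up. Arrb2 and Carns1 had none, and Camk2a was not looked up. Pde1c was the member called between the fractions over all pools. The signals of Pde4a and Slc24a4 had the highest correlation of any pair over the 16 arrays of replicates 1 to 4, replicate 5 left out. Of the listed starts of these 3 genes, only those whose stretch held a match to a motif given below are shown. Each is the 250 bases before a start listed by RefSeq on GRCm38.p6, written 5′ to 3′ on the gene's strand. Pde1c lies on the minus strand of chromosome 6 (chr6:56369635-56369884, start 2 of 3 listed), Pde4a on the plus strand of chromosome 9 (chr9:21183851-21184100, start 2 of 3) and Slc24a4 on the plus strand of chromosome 12 (chr12:102128477-102128726, its only listed start). Capitals mark matches to 3 motifs searched on both strands.
Pde1c: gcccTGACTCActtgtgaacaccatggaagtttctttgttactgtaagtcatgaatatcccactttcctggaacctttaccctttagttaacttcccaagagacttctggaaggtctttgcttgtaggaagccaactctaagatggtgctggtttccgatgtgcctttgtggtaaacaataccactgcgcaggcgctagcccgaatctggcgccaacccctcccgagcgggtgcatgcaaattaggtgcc
Pde4a: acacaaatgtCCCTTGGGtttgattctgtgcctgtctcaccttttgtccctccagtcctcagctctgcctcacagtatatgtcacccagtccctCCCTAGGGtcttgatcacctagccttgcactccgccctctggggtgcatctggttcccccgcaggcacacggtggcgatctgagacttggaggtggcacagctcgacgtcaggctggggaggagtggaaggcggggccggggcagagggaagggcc
Slc24a4: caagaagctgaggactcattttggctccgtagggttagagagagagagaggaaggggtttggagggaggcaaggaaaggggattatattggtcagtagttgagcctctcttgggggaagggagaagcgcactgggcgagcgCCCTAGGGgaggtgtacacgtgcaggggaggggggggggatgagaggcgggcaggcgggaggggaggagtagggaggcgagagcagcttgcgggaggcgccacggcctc
The motifs were the core of the olfactory transcription factor family EBF, CCCNNGGG, the cAMP response element, TGACGTCA, and the AP-1 site, TGANTCA, the last being a binding site of activity-induced Fos and Jun proteins. The shown stretch of Pde4a held 2 EBF cores, CCCTTGGG at 240 and CCCTAGGG at 156 bases before the start, and that of Slc24a4 held CCCTAGGG at 109 bases. That of Pde1c held the AP-1 letters TGACTCA at 246 bases. None held a cAMP response element, and the 2 other listed starts of Pde1c and of Pde4a held none of the 3 motifs. Among 32851 windows of the same length upstream of mouse genes, 11.8% held an EBF core, 6.75% an AP-1 site and 1.55% a cAMP response element. The shown stretches were picked for holding a match, so these shares are no test of them. A match describes letters in a window, and no binding was measured.

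Values are log2 signals of Clariom S arrays, so a difference of 1 is a change of 2-fold, and the number of arrays limits the precision. Median gene signals were 7.03 to 7.46 on the 4 arrays of replicate 5, 1 in each group, against 6.06 to 6.39 on the other 16. Background control probes had medians of 5.14 to 6.34 per array, and the brightest probe sets reached 18.49 to 19.86. The lowest signal of any member, 9.14 for Slc24a4, was above the background medians, and each member stayed at least 2.17 below the brightest probe set of its array. Apart from replicate 5, the arrays that correlated least with their own group were vehicle GFP- 1 (mean r 0.895), vehicle GFP+ 2 (0.946) and odor GFP- 2 (0.951), the arrays in doubt below. S100a5, the gene of the reporter, was higher in GFP+ cells in 10 of 10 pools, by 1.73 (SE 0.25) on the log2 scale. The neuronal marker Omp differed by 0.17 (adjusted p = 0.587 by limma).

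The fractions also differed in markers of other cell types. All 14 measured immune markers were lower in GFP+ cells, and their summed log2 level was 10.06 to 10.35 in odor GFP+ against 18.69 to 20.01 in odor GFP- cells and 10.11 to 10.54 in vehicle GFP+ against 19.04 to 20.40 in vehicle GFP- cells. In GFP+ cells, 10 of the 14 markers in odor pools and 9 in vehicle pools had means no higher than the highest background median, against none in GFP- cells. Of 9 microvillar or tuft-like cell markers, 6 were lower in GFP+ cells in each condition, with summed levels of 8.40 to 9.27 in odor GFP+ against 11.67 to 13.70 in odor GFP- and 8.50 to 9.34 in vehicle GFP+ against 11.37 to 13.09 in vehicle GFP- cells. Of 10 immature sensory neuron markers, 4 were lower in each condition, as were 3 of 8 basal cell or progenitor markers (Kit, Mki67 and Top2a) and 3 of 8 Bowman gland markers (Sox9, Bpifa1 and Ltf). For 5 of the 8 basal cell or progenitor markers no group mean exceeded the highest background median. The gland marker with the highest mean over all arrays, Bpifb9b, was not called, at -0.01 in odor and -0.31 in vehicle pools. Ltf differed by -6.44 in odor and -7.15 in vehicle pools, against -4.50 and -4.09 for Sox9 and -1.02 and -1.03 for Bpifa1. The immune markers had median differences of -5.67 and -6.27, and which cells carried Ltf was not tested. Of 9 sustentacular cell markers, 2 were lower in odor and 4 in vehicle pools, and no marker of any of these lists was called higher. In such mixtures, fewer cells of a type and less RNA per cell cannot be told apart, and the part of these cells in the differences below was not tested.

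Of the enzymes that remove cyclic AMP, Pde1c was the member with the clearest difference between the fractions, close to 2-fold higher in GFP+ cells under odor and under vehicle. On odor GFP+ arrays 1 to 5, Pde1c had log2 signals of 16.03, 16.30, 16.16, 16.19 and 16.08, against 14.84, 14.86, 15.43, 15.36 and 15.51 on odor GFP- arrays. On vehicle GFP+ arrays it had 16.15, 15.09, 16.21, 15.79 and 16.32, against 13.60, 15.51, 15.05, 15.17 and 15.30 on vehicle GFP- arrays. All odor GFP+ arrays were above all odor GFP- arrays, as were 5.07% of all probe sets in either direction (4.74% in vehicle pools). In vehicle pools the groups of Pde1c overlapped, since vehicle GFP+ 2 was low and vehicle GFP- 1 was the lowest of all 20 arrays. The mean difference within odor pools was 0.95 (SE 0.32, 95% confidence interval 0.25 to 1.65, 1.94-fold), above 0 in all 5 pools, and its adjusted p by limma over all probe sets was 0.116. Within vehicle pools it was 0.98 (SE 0.32, interval 0.28 to 1.68, 1.98-fold), above 0 in 4 of 5 pools (limma, adjusted p = 0.088), and 0.59 without vehicle replicate 1. Neither condition alone passed the threshold of 0.05. Without the pools of the arrays in doubt both did, at 0.83 in odor (adjusted p = 0.0157 by limma) and 0.93 in vehicle pools (adjusted p = 0.0188). That setting was added after the data were seen. It leaves out the lowest and highest Pde1c differences, vehicle 2 (-0.42) and vehicle 1 (2.55), and the highest of odor pools, odor 2 (1.45). Their removal narrows the spread, so these passes are no independent support.

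As both conditions gave nearly the same difference for Pde1c, their mean over all 10 pools was also tested, a choice made after these values had been seen. Pde1c rose in GFP+ cells by 0.97 (SE 0.23, interval 0.47 to 1.46, 1.96-fold), above 0 in 9 of 10 pools (limma, adjusted p = 0.0103). The call held when any 1 pool was left out (0.77 to 1.14) and under the 8 other settings tried (0.86 to 1.19), with adjusted p-values by limma between 0.00105 and 0.0453. It was 0.88 without the pools of the arrays in doubt. The pool that ran the other way was vehicle 2, at -0.42, and the widest difference was in vehicle 1, at 2.55.

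**Figure D1:**
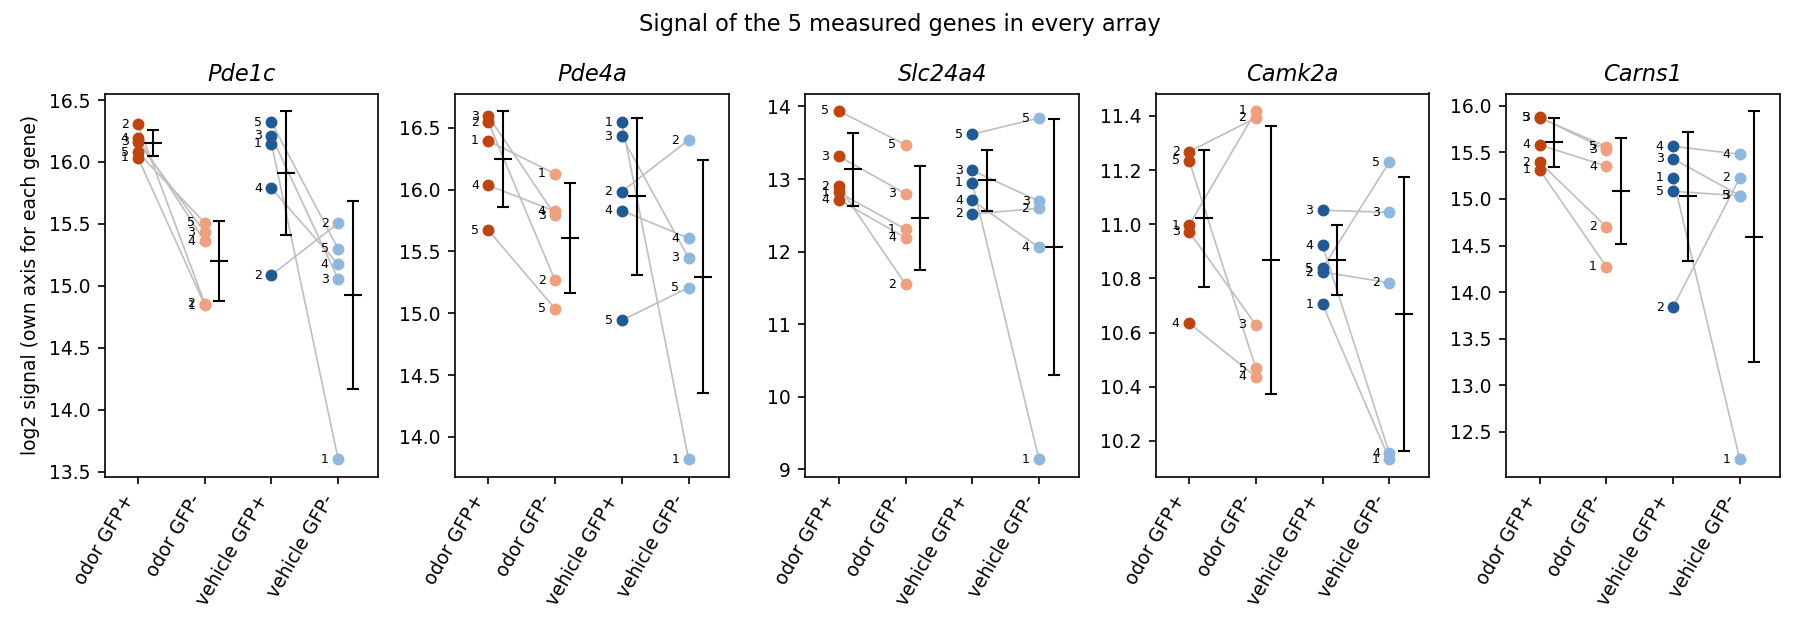
Log2 signal (vertical axis) of the 5 measured genes on each of the 20 arrays, by group, with 1 point per array and bars for the mean and SD of 5 arrays. The Pde1c points of odor GFP+ cells lie between 16.03 and 16.30, above all 5 odor GFP- arrays, while vehicle GFP- 1 is low for Pde1c, Pde4a, Slc24a4 and Carns1.

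Pde4a, the phosphodiesterase outside the cilia, had higher means in GFP+ cells in both conditions, by less than Pde1c and within the spread between pools. Its log2 signals were 16.39, 16.54, 16.59, 16.03 and 15.67 on odor GFP+ arrays, against 16.13, 15.26, 15.79, 15.83 and 15.04 on odor GFP- arrays. They were 16.55, 15.98, 16.43, 15.83 and 14.94 on vehicle GFP+ arrays, against 13.82, 16.40, 15.45, 15.61 and 15.21 on vehicle GFP- arrays. The groups overlapped in both conditions, and replicate 5 was the lowest or next to lowest array of every group. The difference was 0.64 (SE 0.37, adjusted p = 0.475 by limma, 5 of 5 pools above 0) in odor pools and 0.65 (SE 0.37, adjusted p = 0.425, 3 of 5 pools) in vehicle pools. Over all 10 pools it was 0.64, with an interval of 0.07 to 1.22 (limma, adjusted p = 0.143). Without vehicle replicate 1 it was 0.13 in vehicle pools and 0.38 over all pools, and 0.40 over all pools without the pools of the arrays in doubt.

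Slc24a4, which carries calcium out of the cilia, varied most of the members. It had 12.81, 12.90, 13.31, 12.72 and 13.94 on odor GFP+ arrays, against 12.31, 11.55, 12.80, 12.19 and 13.47 on odor GFP- arrays. In vehicle pools it had 12.95, 12.52, 13.12, 12.71 and 13.62 on GFP+ arrays, against 9.14, 12.60, 12.69, 12.06 and 13.84 on GFP- arrays. Replicate 5 was the highest array in every group, vehicle GFP- 1 was far below all others, and the groups overlapped. The difference was 0.67 (SE 0.45, adjusted p = 0.562 by limma) in odor pools, where 5 of 5 pools were above 0 and 4 of them lay between 0.47 and 0.53. In vehicle pools it was 0.92 (SE 0.45, adjusted p = 0.319), with 3 of 5 pools above 0, and pool 1 alone stood at 3.82. Over all 10 pools it was 0.80 (interval 0.10 to 1.49, adjusted p = 0.134 by limma), and without the pools of the arrays in doubt 0.39. Without vehicle replicate 1 it was 0.19 in vehicle pools and 0.43 over all pools.

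Camk2a, the kinase subunit, differed least between the fractions. Its log2 signals were 11.00, 11.27, 10.97, 10.63 and 11.23 on odor GFP+ arrays, against 11.42, 11.39, 10.63, 10.44 and 10.47 on odor GFP- arrays. On vehicle GFP+ arrays they were 10.70, 10.82, 11.05, 10.92 and 10.84, against 10.13, 10.78, 11.04, 10.15 and 11.23 on vehicle GFP- arrays. The groups overlapped in both conditions, and vehicle GFP+ arrays were the most alike, with an SD of 0.13. The difference was 0.15 (adjusted p = 0.865 by limma, 3 of 5 pools) in odor pools and 0.20 (adjusted p = 0.752, 4 of 5 pools) in vehicle pools. Over all 10 pools the interval ran from -0.17 to 0.53, which leaves out a 2-fold change in either direction.

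Carns1, the carnosine synthase, had 1 array far below the rest in each vehicle fraction. It had 15.31, 15.40, 15.88, 15.58 and 15.87 on odor GFP+ arrays, against 14.27, 14.70, 15.53, 15.35 and 15.56 on odor GFP- arrays. It had 15.23, 13.84, 15.43, 15.57 and 15.08 on vehicle GFP+ arrays, against 12.21, 15.23, 15.04, 15.48 and 15.03 on vehicle GFP- arrays. The groups overlapped in both conditions, and the low arrays were vehicle GFP+ 2 and vehicle GFP- 1. The difference was 0.52 (SE 0.44, adjusted p = 0.683 by limma, 5 of 5 pools) in odor pools. In vehicle pools it was 0.43 (SE 0.44, adjusted p = 0.708 by limma, 4 of 5 pools). There the difference became -0.21 without vehicle replicate 1 and 0.89 without vehicle replicate 2. Over all 10 pools it was 0.48 (interval -0.19 to 1.15, adjusted p = 0.386 by limma), in 9 of 10 pools. The difference over all pools was 0.15 without vehicle replicate 1 and 0.71 without vehicle replicate 2.

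Across the members, 0 of 5 members passed the threshold in odor pools, where 7.89% of all probe sets did by limma (2.07% higher and 5.82% lower). In vehicle pools it was 0 of 5, against 9.11% of all probe sets (2.26% higher and 6.86% lower). At an unadjusted p under 0.05 the count was 1 of 5 in each, against 16% and 18.1% of all probe sets. Over all pools 1 of 5 was called, against 14% of all probe sets (4.61% higher and 9.39% lower), and 3 of 5 had an unadjusted p under 0.05, against 25.1%. All 5 differences were above 0 in each condition, with medians of 0.64 in odor and 0.65 in vehicle pools, beside medians of 0.08 and 0.09 over all probe sets. Centring each array on its median shifts these medians of all probe sets to 0.29 and 0.33, and the split of calls in vehicle pools from 501 higher and 1523 lower to 1169 and 1211. Over all pools the split turned, with 4307 higher and 1674 lower after centring and 1023 and 2086 as deposited. In odor pools the split became 807 higher and 1055 lower, where 460 and 1292 were called as deposited. With centring Pde4a and Slc24a4 passed over all pools too, at 0.87 (adjusted p = 0.0329 by limma) and 1.02 (adjusted p = 0.0352).

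**Figure D2:**
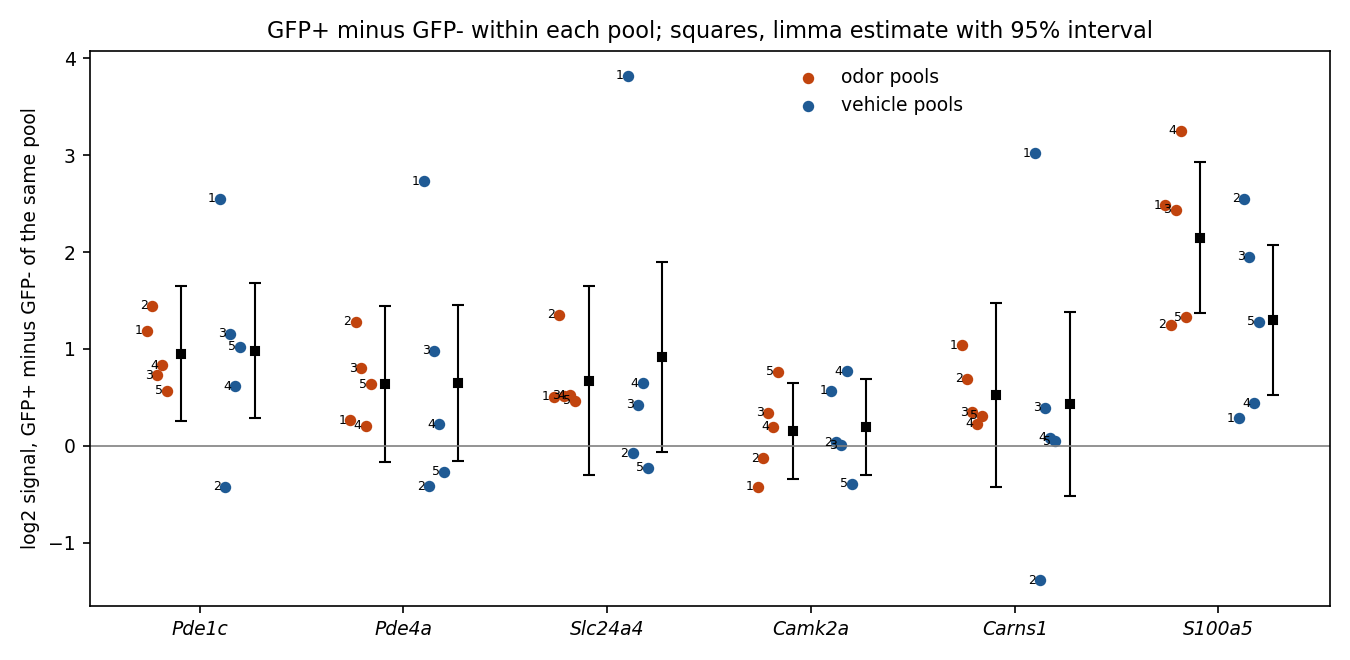
Difference in log2 signal between GFP+ and GFP- cells of the same pool (vertical axis) for the 5 measured genes, with 1 point per pool and odor pools beside vehicle pools. Odor pools lie above 0 for every gene but Camk2a, while vehicle pools spread wider, from -1.39 to 3.02 for Carns1.

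The members' differences were also set beside those of a list of olfactory transduction genes, called the response genes below. The list held Gnal, Adcy3, Cnga2 and Ano2, and also genes such as Gnas, Slc12a2, Rtp1, Rtp2 and Omp. Its 15 genes had median differences of 0.09 to 0.27 in the odor pools and -0.36 to 1.19 in the vehicle pools. Pde1c exceeded that median in 9 of 10 pools, by 0.78 ± 0.39 on average (SD, n = 10). Pde4a exceeded it by 0.46 ± 0.56 in 8 pools and Slc24a4 by 0.61 ± 0.81 in 9. Carns1 stood 0.29 ± 0.72 above it, in 7 pools, and Camk2a was at -0.01 ± 0.58, above it in 5. Of the 15 genes, 5 (Gnal, Gnb1, Ric8b, Stoml3 and Omp) came within 1 of the brightest probe set on some array, where signals can saturate, so this median may be compressed.

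The odor itself was tested next, and no member was called. In GFP+ cells the difference between the odor and vehicle means was 0.24 for Pde1c, 0.30 for Pde4a, 0.15 for Slc24a4 and for Camk2a, and 0.58 for Carns1, with adjusted p-values of 1.0 by limma. Here 0 of 5 members and 0% of all probe sets passed, and at an unadjusted p under 0.05 it was 0 of 5 members and 61 probe sets (0.275%). Carns1 averaged 15.61 ± 0.26 in odor GFP+ and 15.03 ± 0.69 in vehicle GFP+ cells (SD, n = 5 each), with an interval of the difference from -0.15 to 1.31. Without vehicle GFP+ 2, the low array of this gene, its difference was 0.28, and that of Pde1c, also low there, was 0.0370. Without vehicle replicate 5 the difference of Pde4a was 0.0493. With replicate number as a block and all arrays, the unadjusted p of Carns1 was 0.0307 and its adjusted p 0.993 by limma.

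In GFP- cells the members' differences between odor and vehicle were 0.27 for Pde1c, 0.31 for Pde4a, 0.40 for Slc24a4, 0.20 for Camk2a and 0.49 for Carns1. None passed by limma, 0% of all probe sets did, and 30 probe sets (0.135%) but no member had an unadjusted p under 0.05. Vehicle GFP- 1 enters these means. Without it and odor GFP- 2 the differences of Slc24a4, Camk2a and Carns1 turned to -0.11, -0.07 and -0.01, and those of Pde1c and Pde4a were 0.0286 and 0.0293.

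Whether the odor changed the difference between the fractions was tested within pools. The change was -0.03 for Pde1c, -0.01 for Pde4a, -0.24 for Slc24a4, -0.05 for Camk2a and 0.09 for Carns1, each with an adjusted p of 1.0 by limma. Again 0% of all probe sets passed, and 269 (1.21%) but no member had an unadjusted p under 0.05. The interval for Pde1c ran from -1.02 to 0.96, and that for Slc24a4 from -1.63 to 1.14, so changes of up to about 2-fold for Pde1c and more for Slc24a4 were not detectable with 5 pools in each condition. Only for Camk2a, at -0.75 to 0.65, did the interval leave out a 2-fold change.

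Single arrays stood out for several members at once. Relative to the median of its own group, vehicle GFP- 1 deviated by -1.57 for Pde1c, -1.63 for Pde4a, -3.46 for Slc24a4, -0.65 for Camk2a and -2.83 for Carns1. On that array 13 of the 15 response genes were also below their group's median, with a median deviation of -1.12, while the immune markers deviated by 0.28. Vehicle GFP+ 2 deviated by -1.06 for Pde1c and -1.39 for Carns1, with Pde4a at 0.00, Camk2a at -0.01 and the response genes at 0.00. On the arrays of replicate 5, Pde4a was below its group's median and Slc24a4 above it, at -1.04 and 0.67 in vehicle GFP+ cells. The part of cell composition or RNA quality in these deviations was not tested.

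**Figure D3:**
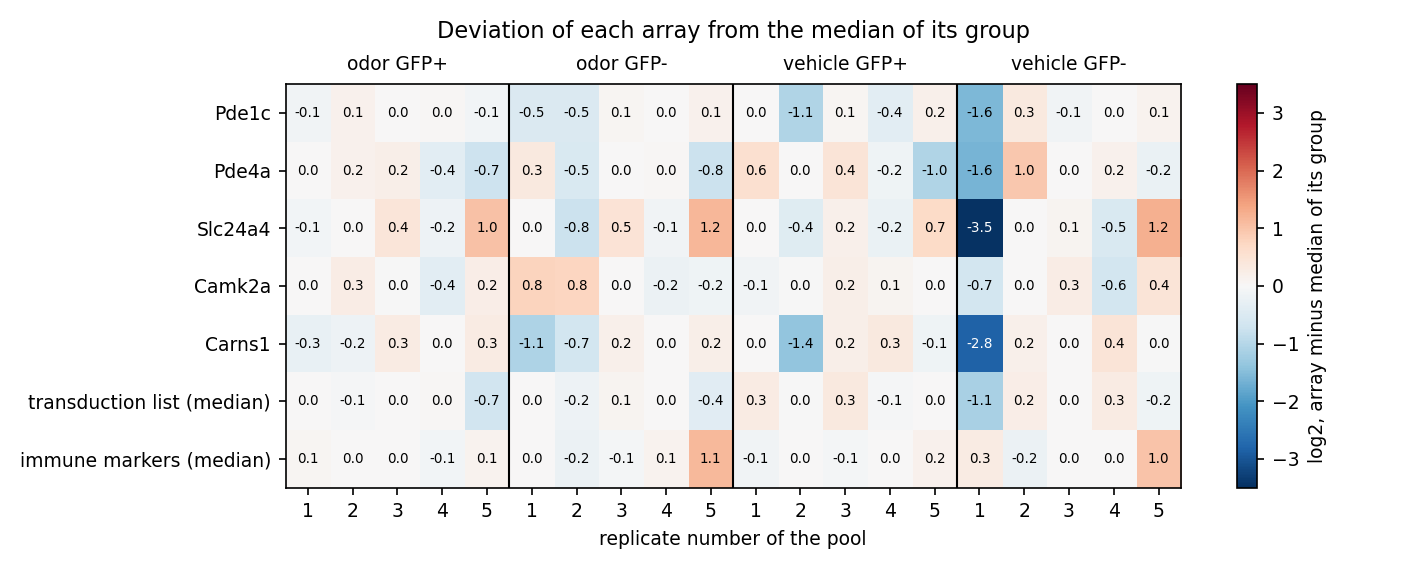
Deviation of each array from the median of its group in log2 signal for the 5 measured genes and for the median of the 15 response genes. Vehicle GFP- 1 is below its group for all 5 genes, down to -3.46 for Slc24a4.

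Over the 16 arrays of replicates 1 to 4, each centred on its median, Pde4a and Slc24a4 had the highest correlation of any pair (r = 0.933), and Pde1c correlated with Pde4a at 0.906, with Slc24a4 at 0.889 and with Carns1 at 0.864. Camk2a stood apart, at 0.375 to 0.593 with the other 4. These arrays share their pools and the low array vehicle GFP- 1, and the values are descriptions. For the differences within the 10 pools, the 6 pairs among Pde1c, Pde4a, Slc24a4 and Carns1 correlated at 0.821 to 0.954. Without vehicle pools 1 and 2, which hold the extremes, these fell to 0.339 to 0.756 over 8 pools. Camk2a ranged from -0.00497 to 0.364 with the others over 10 pools and from -0.825 (with Pde1c) to 0.175 over 8.

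By the same measure on the 16 arrays, each member was compared with 8979 probe sets of mean signal above 7. Most like Pde1c were Cfap298 and Rp2 (both r = 0.968) and the chloride channel Ano2 (0.967). Most like Pde4a were Tmf1 (0.965), Nkapd1 (0.961) and Gkap1 (0.959). Most like Slc24a4 were Dyrk1b (0.967), Tmem67 (0.965) and Ric8b (0.963), the last an exchange factor for the olfactory G protein. Carns1 was most like Ift140 (0.980), which is part of the transport machinery of cilia, Rcbtb1 (0.979) and Atxn2l (0.971). For Camk2a the closest were Adgrl3 (0.884), Cog1 (0.877) and Syn3 (0.864), and no probe set exceeded 0.9, where 2.94% did for Pde1c and 6.1% for Carns1. Such values leave the order of close genes open to small changes.

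Other phosphodiesterases were called in both directions between the fractions. Of 21 measured beside Pde1c and Pde4a, 1 rose and 4 fell in GFP+ cells of odor pools by limma, where 2.07% of all probe sets rose and 5.82% fell. In vehicle pools 1 rose and 5 fell, against 2.26% and 6.86% of all probe sets, and these shares are also the background of the lists that follow. The 21 differences had a median of -0.31 under odor and -0.02 under vehicle. The member that rose was Pde7b, a phosphodiesterase specific for cyclic AMP, named here after its values were seen. Pde7b averaged 16.71 ± 0.24 in odor GFP+ and 15.56 ± 0.70 in odor GFP- cells, and 16.47 ± 0.47 in vehicle GFP+ and 15.50 ± 0.89 in vehicle GFP- cells (SD, n = 5 each). Its differences were 1.15 (adjusted p = 0.0176 by limma) in odor and 0.97 (adjusted p = 0.0424) in vehicle pools, in 5 of 5 pools each. The vehicle call ended in 7 of the 10 fits that left out 1 pool, without both pools numbered 5, without the arrays in doubt and without the pairing by pool. The odor call ended in 3 of the 10 and without the pairing by pool, while over all pools, at 1.06 (adjusted p = 0.00158 by limma), it held under each of these. Those that fell furthest in vehicle pools were Pde4b, Pde2a, Pde3b and Pde8a, all known to hydrolyse cyclic AMP. Where a GFP+ mean was no higher than the highest background median, a bound was taken from the GFP- mean over the higher of signal and background median on each GFP+ array. On that footing Pde4b was at least 2.42-fold lower in odor GFP+ and at least 5.05-fold lower in vehicle GFP+ cells. Pde2a was 5.21-fold lower in odor GFP+ cells, where no array fell below its background median, and at least 5.43-fold lower in vehicle GFP+ cells. Pde3b was at least 2.07-fold and 2.22-fold lower. These bounds allow for background and not for the spread between pools. Pde8a differed by -1.81 in odor and was at least 3.35-fold lower in vehicle GFP+ cells, but its calls ended in 8 (odor) and 4 (vehicle) of the 10 fits that left out 1 pool. The odor call of Pde4b ended in 3 of those fits, and also without both pools numbered 5 and without the pairing by pool. Both calls of Pde2a ended without the pairing by pool. The fifth to fall in vehicle pools was Pde1b, at least 1.98-fold lower in vehicle GFP+ cells, a call lost without the arrays in doubt and without the pairing by pool. For 10 of the 21 genes no group mean exceeded the highest background median.

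Among 11 other genes of calcium extrusion, Slc8a1, a sodium-calcium exchanger, rose in vehicle pools by 1.31 (SE 0.33, adjusted p = 0.0215 by limma, 5 of 5 pools), a call lost without vehicle replicate 3. In odor pools its difference was 0.96 (adjusted p = 0.124), also in 5 of 5 pools. Slc8b1 was called lower in both conditions with no group mean above the highest background median, as held for 7 of the 11 genes, so no size is given. Its odor call ended after quantile normalization, after centring, without both pools numbered 5 and in 3 of the 10 fits that left out 1 pool. Over the 11 genes the median difference was 0.11 in odor and 0.24 in vehicle pools. Of 13 other arrestins, receptor kinases and RGS proteins, 1 rose and 4 fell in each condition. Rgs7, a member of the family that speeds the shutdown of G proteins, rose by 1.33 in odor (adjusted p = 0.00522 by limma) and by 1.33 in vehicle pools (adjusted p = 0.00465), in 5 of 5 pools each. It averaged 11.01 ± 0.18 in odor GFP+ and 9.68 ± 0.50 in odor GFP- cells (SD, n = 5 each). Rgs2, which acts on other G proteins and has been reported to inhibit adenylyl cyclase, fell, with GFP+ means at background. By the bound above it was at least 5.26-fold lower in odor GFP+ and 5.41-fold lower in vehicle GFP+ cells. Grk6, a kinase of activated receptors, was 2.46-fold lower in odor and at least 2.56-fold lower in vehicle GFP+ cells. Both of its calls ended without the pairing by pool. Arrb1, the other beta-arrestin, was 2.94-fold lower in odor and at least 2.60-fold lower in vehicle GFP+ cells. On the odor GFP+ arrays neither gene fell below the background median, so the odor values of Grk6 and Arrb1 are no bounds. The last of the 4, Grk3, had no group mean above the highest background median, and its odor call ended in 7 of the 10 fits that left out 1 pool. Without the pairing by pool both calls of Grk3 ended. The list's median difference was -0.02 in odor and -0.18 in vehicle pools.

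**Figure D4:**
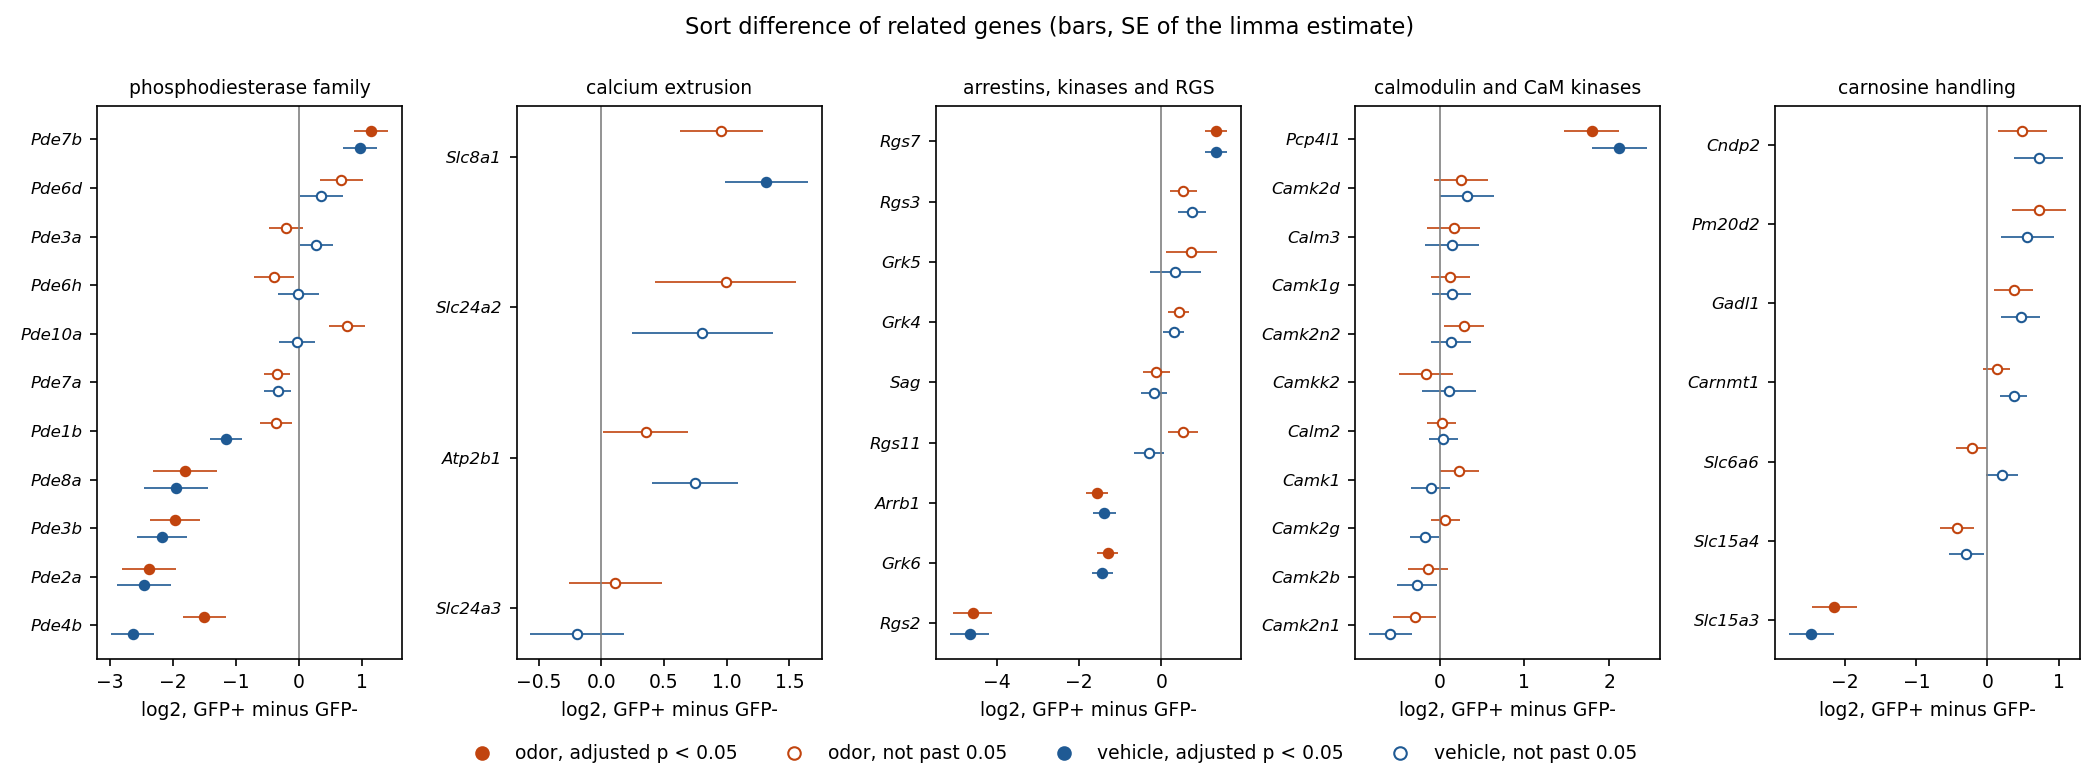
Difference between GFP+ and GFP- cells in log2 signal (horizontal axis) for genes of the related lists, odor beside vehicle pools, with bars for the SE of the limma estimate. The members, the response genes and genes with no group mean above the highest background median are left out. Rgs7 and Pcp4l1 lie above 0 in both conditions and Rgs2 far below it.

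Of 16 calmodulin and calmodulin kinase genes beside Camk2a, 1 was called in each condition. It was Pcp4l1, related to a small protein that binds calmodulin, which rose by 1.79 in odor (adjusted p = 0.00233 by limma) and 2.12 in vehicle pools (adjusted p = 0.00053), in 5 of 5 pools each. Of 9 other genes of carnosine handling, none rose. Slc15a3, a transporter of peptides and histidine, fell by 2.16 in odor and by 2.48 in vehicle pools, and Slc15a2 was called lower in vehicle pools with no group mean above the highest background median. That call of Slc15a2 ended without the pairing by pool, without the arrays in doubt and in 3 of the 10 fits that left out 1 pool, and the gene is not tested with the dimmest 25% left out. Among the 15 response genes Gnas, the G protein subunit widespread in other cells, fell by 3.18 in odor and by 3.55 in vehicle pools. None of the other 14 was called in either condition, while over all pools Ano2 rose by 0.72 (adjusted p = 0.0255 by limma), a call lost without vehicle replicate 3 or odor replicate 1 or 2, without both pools numbered 5 and without the pairing by pool. The genes that fell did so beside the markers of immune and other cells given above, and the part of those cells in it was not tested. No gene of these lists was called for a change of the sort difference with odor, or between odor and vehicle in either fraction.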

How the data were processed

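RNA of sorted cells from 10 pools of 3 mice was measured on 20 Clariom S arrays. Per the submitters' processing notes the authors used Affymetrix Expression Console, whose version and settings the sources used here do not give. From their range, the deposited values were taken to be log2 signal, and they were not normalized again. Of 28846 rows, 6640 controls were left out, and 22206 probe sets were tested without a filter. Symbols came from the probe annotation (19572 probe sets with 1 symbol, 2634 with none), updated by Entrez ID through RefSeq, which changed 0. No detection calls were given.

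Differences GFP+ minus GFP- within pools entered 1 fit with limma 3.58.1 in R 4.3.3 (lmFit, eBayes, Benjamini-Hochberg over all probe sets at 0.05). Odor and vehicle were compared within each fraction on 10 arrays without a block. GFP+ and GFP- samples of 1 number and condition were taken as 1 pool from the labels. Odor and vehicle samples share replicate numbers, and deviations of same-numbered GFP+ arrays from their group means correlated at 0.25, 0.52, 0.35, 0.16 and 0.86, all above the limit of 0.1 for pairing, partly through the arrays of replicate 5 (at -0.05, 0.36, 0.37 and 0.25 without them). For GFP- arrays the lowest value was -0.38 (number 2), so these were treated as unpaired. The GFP+ arrays, though above the limit, were also tested without the block, and the fit with it is given as another setting.

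The members, the related lists and the naming rule were chosen with earlier results of these data known. Named were all members, S100a5 and Omp, of each list up to 4 genes with the widest called difference in vehicle pools, and the 3 genes most like each member. Promoters were looked up by symbol for 5 of the 6 genes, Camk2a being left out. Of these, 3 had an entry, and Arrb2 and Carns1 had none. The fits were tested on simulated data with known changes and independent noise on each array. The simulated data held no pool effects and no low arrays, so the pairing by pool was not tested there. Figures were drawn with matplotlib 3.10.9 in Python 3.11.15.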

Additional observations from a re-analysis of the deposited data

Results flagged for a closer look

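Each member was tested for a lone array in each group of 5, taking an array as set apart when its gap to the nearest other exceeded 0.71 of the group's range (Dixon's 95% limit). Of 20 such groups, 3 held one, where chance gives about 1 in 20. Pde1c was low on vehicle GFP- 1, at 13.60, where the other vehicle GFP- arrays had 15.05 to 15.51. Carns1 was low on the same array, at 12.21, where the others had 15.03 to 15.48. Carns1 was also low on vehicle GFP+ 2, at 13.84, where the others had 15.08 to 15.57. Values without these arrays stand beside the differences of these genes.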

How the results depend on the processing

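Pde1c passed the threshold in vehicle pools after quantile normalization (0.91, adjusted p = 0.0192 by limma), centring (1.23, 0.0339) and without the arrays in doubt (0.93, 0.0188), a setting added after seeing the data, and in odor pools after quantile normalization (0.82, 0.0405) and without the arrays in doubt (0.83, 0.0157). It also passed in vehicle pools without vehicle replicate 2 and in odor pools without vehicle replicate 1 or 2, so that members past the threshold were 0 to 1 in each, and 1 in those settings. With 1 pool left out its difference was 0.59 to 1.34 in vehicle and 0.83 to 1.05 in odor pools. Over all pools, centring called 3 members, adding Pde4a (0.87, adjusted p = 0.0329) and Slc24a4 (1.02, 0.0352), and 5981 probe sets, against 3109. Without the replicate block by pool, 1198, 1050 and 1793 probe sets were called in vehicle, odor and all pools, where 2024, 1752 and 3109 were with it. With 1 pool left out they numbered 1532 to 2316, 1296 to 2127 and 2548 to 4125. The block of replicate numbers changed no call between odor and vehicle.

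Signs turned only for results not called. In odor pools Camk2a was at -0.00108 without both pools numbered 5. For the odor effect on the sort, Pde4a was at 0.0262 after quantile normalization, Pde1c at 0.0740 without both pools numbered 5, and Pde4a, Slc24a4 and Camk2a at 0.16, 0.22 and 0.0937 without the arrays in doubt. Between odor and vehicle GFP- cells, Slc24a4, Camk2a and Carns1 were at -0.11, -0.0651 and -0.0140 without them. With 1 pool left out, Carns1 in vehicle pools ran from -0.21 to 0.89 and Camk2a in odor pools from -0.00108 to 0.30. The odor effect ran from -0.38 to 0.36 for Pde1c, -0.28 to 0.51 for Pde4a, -0.53 to 0.48 for Slc24a4, -0.20 to 0.10 for Camk2a and -0.36 to 0.74 for Carns1. Odor against vehicle ran from -0.0459 to 0.31 for Slc24a4 in GFP+ cells and, in GFP- cells, from -0.0572 to 0.42 for Pde1c, -0.0569 to 0.59 for Pde4a, -0.33 to 0.84 for Slc24a4 and -0.11 to 0.71 for Carns1. Of 525 values of members under other settings, 483 kept direction and side of the threshold, 32 changed sign and 10 came past the threshold. The cause of these changes was not tested. Part of the 483 was fixed in advance, since leaving out a vehicle pool cannot change the estimate within odor pools, nor the reverse. Of the 483, 226 came from odor comparisons, whose adjusted p-values by limma were all 0.907 or more. The count is therefore no measure of stability.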
